A study of Mus musculus with 4 samples.

Results

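Of the 32285 genes counted in mouse liver nuclei, 10 are described here: the Toll-like receptor genes Tlr2, Tlr3, Tlr4, Tlr7, Tlr9, Tlr11, Tlr12 and Tlr13 and the NOD receptor genes Nod1 and Nod2. They were chosen by name, from the rows of these genes in the RNA matrices and the peaks of open chromatin within 10 kb of their start sites. All 10 had counts at both time points. RNA and open chromatin were read from the same nuclei (10x Multiome). The nuclei came from liver cells of wild-type C57BL/6J mice, by the study's methods male and 6 to 12 weeks old, sorted as living CD45+ CD64- CD11c+ cells. The D0 library came from mice at day 0 of the diet and the D5 library from mice at day 5, fed 0.1% DDC in the chow. DDC is 3,5-diethoxycarbonyl-1,4-dihydrocollidine, a compound that damages bile ducts. The number of mice pooled in a library is not given in the sources used here. Each day is 1 library, so that no test between days was possible, and a difference between days is also a difference between libraries. By the study's resource list, the days may also stem from separate experiments.

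Toll-like receptors are membrane proteins that bind conserved products of microbes through a horseshoe of leucine-rich repeats and signal through adaptors with a TIR domain. Of the members described here, those at the cell surface bind lipids and lipoproteins. Those in endosomes bind nucleic acids or, for Tlr11 and Tlr12, a parasite protein, and depend on the chaperone Unc93b1 to get there. The NOD proteins are cytosolic and bind fragments of bacterial peptidoglycan, and they signal through the kinase Ripk2. The liver receives microbial products from the gut through the portal vein, and dendritic cell subsets are known to divide these sensors among themselves.

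Levels were read in classes of nuclei named from marker genes fixed for each cell type, with the 10 genes and the pathway genes kept out of the clustering. A level is the sum of a gene's unique molecular identifiers (UMIs) in a class scaled to counts-per-million (CPM) of that class, with a 95% exact Poisson interval. Intervals cover counting error only. In such sums, fewer expressing nuclei and less RNA per nucleus cannot be told apart. Levels were compared between classes and days for 1 gene at a time, never between genes. The 8 classes used had at least 50 nuclei on each day. They were type 1 conventional dendritic cell (cDC1)-like with 1754 nuclei at D0 and 3158 at D5, cDC2-like with 2429 and 9962, Ccr7+ DC-like with 299 and 910, and plasmacytoid dendritic cell (pDC)-like with 2345 and 2059. Macrophage-like nuclei numbered 755 and 1323, nonclassical monocyte-like 103 and 166, NK cell-like 1434 and 1094, and T cell-like 345 and 433. Nonclassical monocyte-like nuclei held only 134487 UMIs at D0, and their values have wide intervals.

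The libraries held 44496348 UMIs in 16260 called barcodes at D0 and 94374499 in 27873 at D5, and 591 barcodes occurred in both. After filters on depth and mitochondrial share and the removal of likely doublets, 10980 and 19834 nuclei were kept, of which 1483 and 635 lay in 4 clusters left unnamed. Fcgr1, which encodes the CD64 protein that the sort was set against, was at 42.5 CPM (D0) and 77.8 CPM (D5) in macrophage-like nuclei, and no other class exceeded 29.7 CPM. The macrophage-like cluster had 7 macrophage markers and 4 markers of classical monocytes. The T cell-like cluster had 8 T cell and 7 NK cell markers, and the NK cell-like cluster 8 NK cell and 4 T cell markers. Of the kept nuclei, 25.3% at D0 and 13.3% at D5 held UMIs of 2 or more lymphoid marker genes together with 2 or more of dendritic cells, the rule behind every later share of nuclei with both kinds of marker. Free RNA was measured in barcodes with fewer than 100 UMIs, with 2578184 UMIs in the D0 and 5393491 in the D5 library, and its levels are given beside the results.

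The start sites of 4 members are shown for reference, since Tlr11 and Tlr9 held the most matches to motifs of myeloid and interferon-responsive factors, Tlr13 was read most in phagocytes, and Nod2 differed most between states of cDC2-like nuclei. The windows run from 250 bases before to 50 bases after the start, on the gene's strand, from RefSeq on GRCm38.p6. The first base of the start site that the files give for each of these 4 genes lies in its window. Tlr9 is shown from chr9:106222348-106222647 (plus strand), Tlr11 from chr14:50357664-50357963 (plus), Tlr13 from chrX:106143025-106143324 (plus) and Nod2 from chr8:88647097-88647396 (plus). Capitals mark matches to any of 4 motifs, searched on both strands.
Tlr9: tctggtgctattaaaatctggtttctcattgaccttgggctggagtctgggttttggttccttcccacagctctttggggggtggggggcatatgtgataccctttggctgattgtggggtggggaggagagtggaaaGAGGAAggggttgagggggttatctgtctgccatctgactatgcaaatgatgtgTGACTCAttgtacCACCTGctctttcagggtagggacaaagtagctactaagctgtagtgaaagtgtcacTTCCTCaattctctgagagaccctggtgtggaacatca
Tlr11: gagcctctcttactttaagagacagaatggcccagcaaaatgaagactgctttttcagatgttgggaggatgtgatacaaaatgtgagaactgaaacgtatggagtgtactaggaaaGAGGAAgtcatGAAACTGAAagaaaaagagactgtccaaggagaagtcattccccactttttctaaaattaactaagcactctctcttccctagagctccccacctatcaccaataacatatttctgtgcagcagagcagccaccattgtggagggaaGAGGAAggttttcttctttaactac
Tlr13: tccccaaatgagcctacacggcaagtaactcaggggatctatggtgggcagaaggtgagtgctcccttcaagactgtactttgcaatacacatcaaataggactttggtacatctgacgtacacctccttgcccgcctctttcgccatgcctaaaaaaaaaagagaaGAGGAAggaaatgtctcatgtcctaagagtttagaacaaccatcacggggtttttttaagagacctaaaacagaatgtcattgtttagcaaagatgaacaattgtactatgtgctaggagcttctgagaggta
Nod2: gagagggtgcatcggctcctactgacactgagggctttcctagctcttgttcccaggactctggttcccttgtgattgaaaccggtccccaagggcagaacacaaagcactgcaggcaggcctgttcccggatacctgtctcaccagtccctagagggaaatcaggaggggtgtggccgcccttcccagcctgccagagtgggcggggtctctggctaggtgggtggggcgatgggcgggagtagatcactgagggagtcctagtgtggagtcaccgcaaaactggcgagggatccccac
The motifs were GAGGAA, a core bound by PU.1, present in 28.3% of 32851 RefSeq windows of this length, GAAANNGAA, which resembles an interferon response element, in 8.56%, CAGGTG, an E-box, in 20.2%, and TGANTCA, an AP-1 site, in 7.81%. Positions are of a match's first base, counted from the start and negative before it. The Tlr9 window held GAGGAA at base -112 and, on the other strand, at base 13, with an AP-1 match at -58 and an E-box at -45. The Tlr11 window held GAGGAA at -133 and 26 and the interferon-like motif at -122, and the Tlr13 window held GAGGAA at -83. The Nod2 window held none of the 4, and nor did those of Tlr3, Tlr12 and Nod1, while the Tlr2 window held an E-box at -178. Tlr4 and Tlr7 had no window in the table. These matches describe letters only.

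Tlr3, the endosomal receptor of double-stranded RNA, was read above all in cDC1-like nuclei. Its level there was 264 CPM (248.8 to 280, 1128 UMIs) at D0 and 169.5 CPM (162 to 178, 1802 UMIs) at D5. The next class stood at 28.3 CPM at D0 (T cell-like, 14 UMIs) and 15.2 CPM at D5 (nonclassical monocyte-like, 4 UMIs), which made cDC1-like nuclei 9.34-fold (5.54 to 17.1) and 11.2-fold (4.36 to 41.1) higher. No other class overlapped the cDC1-like interval on either day. Of cDC1-like nuclei, 40.8% held a Tlr3 UMI at D0 and 37.7% at D5. The shares were 3.97% and 2.57% in macrophage-like, 3.58% and 2.88% in cDC2-like, and 2.30% and 2.47% in NK cell-like nuclei. With every nucleus thinned to 1000 UMIs, the cDC1-like shares were 22.75% and 14.3%. Free RNA held 69.04 CPM and 26.7 CPM of Tlr3, so that cDC1-like nuclei alone were above it on either day. Sums of cDC1 markers in the other classes ran from 327 CPM in T cell-like to 1075 CPM in cDC2-like nuclei at D0, against 5588 CPM in cDC1-like nuclei. T cell-like nuclei had the lowest sum on both days (222 CPM at D5), with the highest Tlr3 of these classes at D0 and the lowest at D5, and neighbours in the order of the low Tlr3 levels lay within their intervals. The part of cDC1 RNA in these levels was not tested.

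Tlr11 and Tlr12 form a pair that recognises profilin of apicomplexan parasites, with a bacterial flagellin also described for Tlr11. Tlr11 was, like Tlr3, highest in cDC1-like nuclei on both days, with 78.2 CPM (70.0 to 87.0, 334 UMIs) at D0 and 41.9 CPM (38.1 to 45.95, 445 UMIs) at D5. Every other class was lower than cDC1-like nuclei beyond its interval at D5, the next being Ccr7+ DC-like nuclei at 3.99 CPM, 10.5-fold (5.65 to 22.0) below. At D0 the next class was macrophage-like at 15.3 CPM, 5.12-fold (3.36 to 8.19) below, and cDC2-like nuclei held 14.0 CPM. A Tlr11 UMI was found in 15.2% of cDC1-like nuclei at D0 and 12.5% at D5. The shares were 2.68% and 0.833% in cDC2-like, 2.68% and 1.10% in Ccr7+ DC-like, and 0.558% and 0.548% in NK cell-like nuclei. Free RNA stood at 24.8 CPM and 11.9 CPM, above every class except cDC1-like nuclei by its value.

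Tlr12 had a different distribution from its partner. At D0 it was highest in cDC1-like nuclei at 35.6 CPM (30.1 to 41.7, 152 UMIs), followed by pDC-like nuclei at 18.1 CPM (14.2 to 22.9, 71 UMIs) and NK cell-like nuclei at 14.99 CPM (10.1 to 21.4, 30 UMIs). The cDC1-like level was 1.96-fold (1.47 to 2.64) above the pDC-like level. By D5 the 3 classes stood at 11.1 CPM (9.19 to 13.3), 14.75 CPM (11.2 to 19.1) and 11.6 CPM (7.52 to 17.15), and their intervals overlapped. Tlr11 was low in both pDC-like nuclei (5.62 CPM and 2.85 CPM) and NK cell-like nuclei (4.50 CPM and 3.25 CPM). Free RNA held 18.2 CPM of Tlr12 at D0, within the intervals of pDC-like and NK cell-like nuclei, and 5.01 CPM at D5, below both.

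Tlr7, an endosomal receptor of single-stranded RNA, marked pDC-like nuclei. Its level there was 181 CPM (168 to 194, 707 UMIs) at D0 and 157 CPM (144 to 170, 605 UMIs) at D5, with a UMI in 23.9% and 22.7% of nuclei. Nonclassical monocyte-like nuclei stood at 171 CPM (108 to 257, 23 UMIs) at D0, which did not differ from pDC-like nuclei beyond the interval (1.06-fold, 0.698 to 1.68), and at 64.5 CPM (37.55 to 103, 17 UMIs) at D5, 2.43-fold (1.504 to 4.20) lower. Macrophage-like nuclei followed with 30.5 CPM and 31.3 CPM. The other classes held at most 13.6 CPM, where cDC1-like nuclei had 7.96 CPM and 3.95 CPM. Free RNA, at 45.8 CPM and 20.8 CPM, lay above these and, at D0, above macrophage-like nuclei.

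Tlr9, the endosomal receptor of DNA with unmethylated CpG, had few counts in any class, 55 UMIs in the 8 classes at D0 and 133 at D5. In pDC-like nuclei, a class known to use this receptor, it reached 6.13 CPM (3.93 to 9.12, 24 UMIs) and 4.14 CPM (2.37 to 6.72, 16 UMIs). The values in cDC1-like nuclei were 2.34 CPM and 3.20 CPM, in cDC2-like nuclei 2.40 CPM and 2.26 CPM, and in macrophage-like nuclei 3.98 CPM and 3.34 CPM. The intervals of these 4 classes overlapped one another on both days, which does not show equal levels. At D0 the pDC-like lower bound of 3.93 CPM lay just below the upper bounds of cDC1-like (4.30 CPM) and cDC2-like nuclei (4.195 CPM). Ratios of pDC-like to these 2 classes were not computed. No Tlr9 UMI was found in T cell-like nuclei, which allows up to 6.06 CPM at D0 and 3.43 CPM at D5 by a floor of 3 counts, and 7.45 CPM and 4.22 CPM by the exact intervals used for other levels.

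Tlr13, an endosomal receptor of bacterial ribosomal RNA, was read in phagocytes and conventional dendritic cells. Nonclassical monocyte-like nuclei were highest with 59.5 CPM (25.7 to 117, 8 UMIs) at D0 and 102 CPM (67.5 to 149, 27 UMIs) at D5. Macrophage-like nuclei had 31.2 CPM (22.9 to 41.5) and 36.2 CPM (30.5 to 42.7), and at D5 the monocyte-like level was 2.83-fold (1.80 to 4.29) above them. Ccr7+ DC-like nuclei had 22.7 CPM and 27.5 CPM, cDC2-like nuclei 19.2 CPM and 18.2 CPM, and cDC1-like nuclei 12.4 CPM and 20.6 CPM. In pDC-like nuclei it was 1.53 CPM (0.563 to 3.34) and 4.14 CPM (2.37 to 6.72), where Tlr7, the other sensor of single-stranded RNA here, was highest. Free RNA held 7.76 CPM and 12.8 CPM of Tlr13, and 5 classes were above it on each day.

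At the cell surface, Tlr2 senses bacterial lipoproteins together with Tlr1 or Tlr6, and Tlr4 senses lipopolysaccharide with Ly96 and Cd14. Tlr2 was highest in macrophage-like nuclei with 134 CPM (116 to 154, 202 UMIs) at D0 and 136 CPM (125 to 148, 529 UMIs) at D5, and in cDC2-like nuclei with 94.9 CPM (86.5 to 104, 474 UMIs) and 106 CPM (103 to 110, 3064 UMIs). Nonclassical monocyte-like nuclei had 104 CPM and 94.8 CPM. The intervals of macrophage-like and cDC2-like nuclei lay apart on both days, with a ratio of 1.28-fold (1.16 to 1.402) at D5, and the wide monocyte-like interval overlapped both. Between the conventional DC classes the step was wide, since cDC1-like nuclei had 20.8 CPM (16.7 to 25.6) and 17.1 CPM (14.7 to 19.8). The 5 lower classes, cDC1-like nuclei included, ranged from 9.199 to 27.1 CPM, and all lay below the free RNA at 48.1 CPM and 81.8 CPM.

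Tlr4 was low throughout, with macrophage-like nuclei at 22.6 CPM (15.6 to 31.5, 34 UMIs) at D0 and 18.8 CPM (14.7 to 23.6, 73 UMIs) at D5. The cDC2-like level of 10.6 CPM (7.95 to 13.9) and 5.97 CPM (5.11 to 6.93) was the next with more than 3 UMIs, 3.14-fold (2.36 to 4.16) below macrophage-like nuclei at D5. In cDC1-like nuclei it was 5.15 CPM and 3.86 CPM, and in pDC-like nuclei 2.04 CPM and 2.33 CPM. Free RNA stood at 3.88 CPM and 3.34 CPM. Its co-receptor gene Cd14 was likewise highest in macrophage-like nuclei, at 714.5 CPM and 737 CPM, with 286 CPM and 182 CPM in cDC2-like nuclei.

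Nod1, which binds peptidoglycan fragments with meso-diaminopimelic acid, had another order. Nonclassical monocyte-like nuclei held 134 CPM (79.3 to 212, 18 UMIs) at D0 and 87.2 CPM (55.3 to 131, 23 UMIs) at D5. Next at D0 came NK cell-like nuclei with 64.0 CPM (53.4 to 76.05, 128 UMIs), T cell-like nuclei with 54.5 CPM (35.9 to 79.3, 27 UMIs) and macrophage-like nuclei with 54.4 CPM (43.3 to 67.5, 82 UMIs), whose intervals overlapped. Here lymphoid nuclei stood beside macrophage-like nuclei and above all 4 DC-like classes. At D5 T cell-like nuclei, at 48.1 CPM (34.6 to 65.0, 42 UMIs), were 1.92-fold (1.248 to 2.92) above NK cell-like nuclei at 25.1 CPM (18.85 to 32.75, 54 UMIs). These 2 classes are not cleanly apart, since NK cell markers summed to 4054 CPM in T cell-like and 4890 CPM in NK cell-like nuclei at D5. T cell markers summed to 2144 CPM and 520 CPM. The 4 DC-like classes had 4.53 to 12.0 CPM at D0 and 3.58 to 7.98 CPM at D5, by their values below the free RNA of 22.1 CPM and 8.90 CPM.

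Nod2, the receptor of muramyl dipeptide, was read in all myeloid classes and little in the others. Nonclassical monocyte-like nuclei held 81.8 CPM (40.8 to 146, 11 UMIs) at D0 and 37.9 CPM (18.2 to 69.7, 10 UMIs) at D5. The cDC2-like level was 69.5 CPM (62.3 to 77.15, 347 UMIs) at D0, 1.31-fold (1.02 to 1.69) above macrophage-like nuclei at 53.1 CPM (42.1 to 66.1, 80 UMIs). At D5 cDC2-like nuclei had 37.1 CPM (34.9 to 39.4, 1070 UMIs), macrophage-like 30.6 CPM (25.3 to 36.6, 119 UMIs) and Ccr7+ DC-like 31.9 CPM (25.3 to 39.7, 80 UMIs), and neighbours in this order were within their intervals. In cDC1-like nuclei it was 40.7 CPM (34.9 to 47.2) and 22.0 CPM (19.3 to 25.0). The pDC-like, NK cell-like and T cell-like values were at most 9.199 CPM at D0 and 4.14 CPM at D5, by their values below the free RNA of 16.7 CPM and 11.3 CPM.

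**Figure D1:**
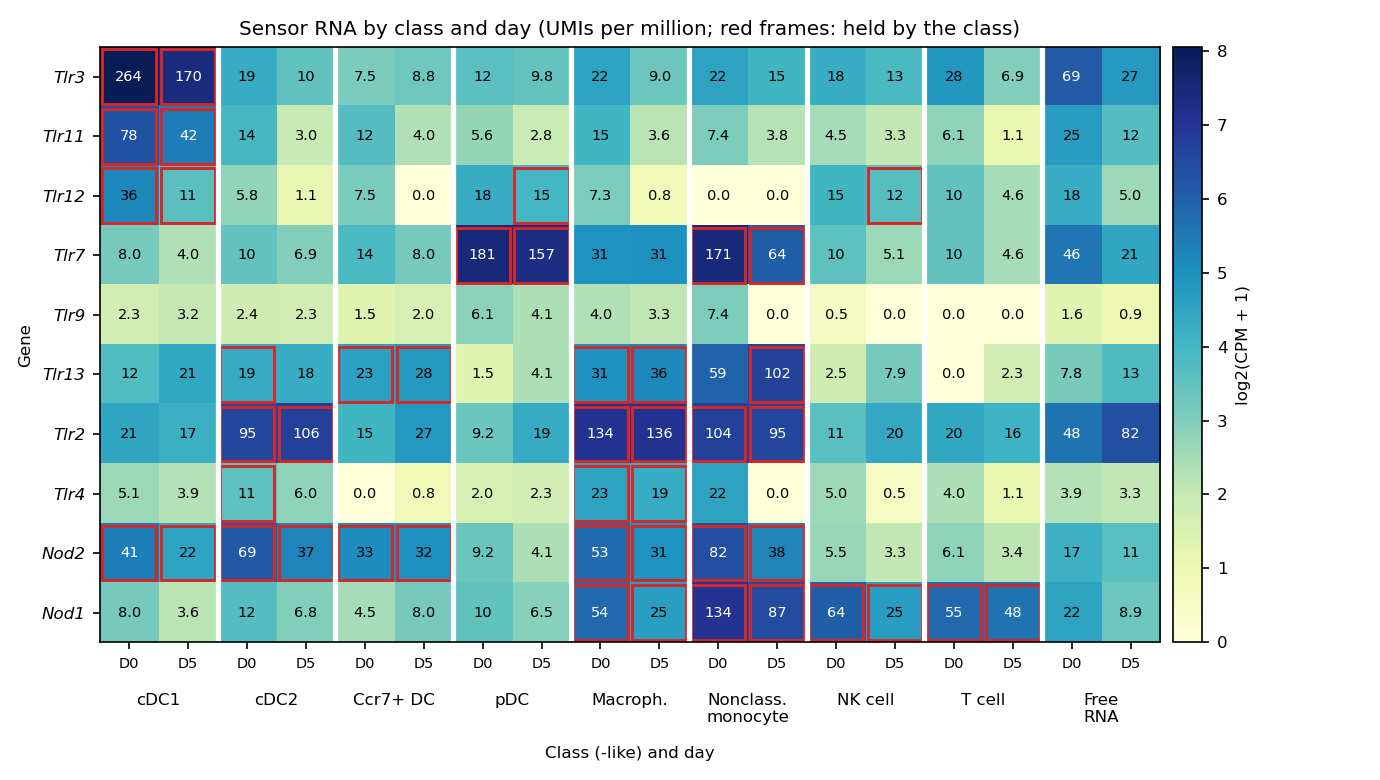
Levels of the 10 sensors in CPM (numbers in the cells) by class and day, with the free RNA in the last columns; colour shows log2(CPM + 1) and red frames mark the pairs of gene and class counted as held. Each cell is a sum over the nuclei of a class in 1 library. Tlr3 and Tlr11 stand out in cDC1-like nuclei (264 and 78.2 CPM at D0). Tlr7 is high in pDC-like nuclei (181 CPM at D0), with nonclassical monocyte-like nuclei at 171 CPM on that day.

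A sensor was counted as part of a class's set when the class held at least 10 of its UMIs, at least 0.25 of the level of the highest class, and a lower bound above the upper bound of the lowest class. By this rule 22 of the 80 pairs of gene and class were held at D0 and 23 at D5, with 20 held on both days. Where classes tied at 0 UMIs, as for Tlr12 and Tlr9 at D5, the first in the order of the classes served as the lowest. The cDC1-like set was Tlr3, Tlr11 and Nod2 on both days, with Tlr12 held at D0 and, by such a tie, at D5. The cDC2-like set was Tlr2, Tlr4, Tlr13 and Nod2 at D0 and Tlr2 and Nod2 at D5. Its Tlr13 left the set because it was under 0.25 of the monocyte-like level. It was held at D5 without doublet removal, at Leiden resolution 0.6, with at least 2000 UMIs per nucleus and at a minimum of 0.1 of the highest class. Without doublet removal and with at least 2000 UMIs per nucleus, nonclassical monocyte-like nuclei were not among the classes used. Tlr4 left the cDC2-like set because the lowest class, nonclassical monocyte-like nuclei with 0 UMIs, had an upper bound of 14.0 CPM. Macrophage-like nuclei held Tlr2, Tlr4, Tlr13, Nod1 and Nod2 on both days. Nonclassical monocyte-like nuclei held Tlr2, Tlr7, Nod1 and Nod2 at D0, with Tlr13 added at D5, after 8 UMIs at D0 that were under the minimum. The pDC-like set was Tlr7 and the NK cell-like set Nod1 on both days, and at D5 both classes also held Tlr12 by that tie. At D5 Tlr12 had 0 UMIs both in Ccr7+ DC-like nuclei, with an upper bound of 1.47 CPM, and in nonclassical monocyte-like nuclei, with one of 13.99 CPM. By the second bound no class held Tlr12 at D5 and 20 pairs were held, so its sets at D5 and D0 cannot be set against each other. At D0 the bound in nonclassical monocyte-like nuclei was 27.4 CPM on 0 UMIs. Ccr7+ DC-like nuclei held Tlr13 and Nod2, and T cell-like nuclei Nod1, on both days. With at least 2000 UMIs per nucleus the Ccr7+ DC-like set was empty at D0, and at Leiden resolution 0.6 nonclassical monocyte-like nuclei did not hold Tlr7 at D5. Tlr9 was in no set, but 3 classes tied at 0 UMIs at D5, and with the narrowest of their upper bounds (1.71 CPM) it was held by cDC1-like, cDC2-like, pDC-like and macrophage-like nuclei, which made 27 pairs. Both readings of the ties were added after the data were seen. Without doublet removal and at Leiden resolution 0.6, Tlr9 was held by cDC1-like and pDC-like nuclei at D5. Tlr12 was held at D0 by pDC-like nuclei under both of these settings and by NK cell-like nuclei without doublet removal, and not by NK cell-like nuclei at D5 with at least 2000 UMIs per nucleus. With every nucleus thinned to 1000 UMIs, Tlr12 was not held by cDC1-like nuclei at D0, Tlr4 by macrophage-like nuclei at D5, Tlr2 by nonclassical monocyte-like nuclei at D0 and Tlr4 by cDC2-like nuclei at D0. Under that setting Tlr13 in Ccr7+ DC-like and Nod2 in nonclassical monocyte-like nuclei were held on neither day. At D5 Tlr4 was held by cDC2-like nuclei under 4 other settings, without doublet removal, at Leiden resolutions 0.6 and 1.5 and with at least 2000 UMIs per nucleus. Of these, the settings without doublet removal and with at least 2000 UMIs had no nonclassical monocyte-like class.

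From D0 to D5, the pairs of gene and class with at least 50 UMIs over both days were compared as log2 of the ratio of levels, with an exact conditional interval for counting error. A pair past 2-fold is called here for its size alone. Of 40 such pairs, 9 were at least 2-fold lower at D5 and 1 was at least 2-fold higher. In each class with such pairs, all genes past 2-fold were also more often lower than higher. Of all 40, 31 were lower and 9 higher, with a median of -0.42, and 23 lay beyond their intervals, 19 downwards and 4 upwards. How many of all genes lay beyond such intervals was not counted, so the 23 cannot be read as particular to the members. The median over all genes was also below 0, at -0.21 in cDC1-like, -0.14 in cDC2-like, -0.06 in Ccr7+ DC-like, -0.10 in pDC-like and -0.20 in macrophage-like nuclei. Scaling by trimmed mean of M values (TMM) factors, whose log2 ratios were -0.33 in cDC1-like, -0.27 in cDC2-like, -0.16 in Ccr7+ DC-like, -0.15 in pDC-like, -0.31 in macrophage-like and -0.19 in NK cell-like nuclei, would raise every ratio of a class by that amount, and with it 5 pairs were at least 2-fold lower and 3 at least 2-fold higher.

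In cDC1-like nuclei, 3 of 9 members compared were past 2-fold, all lower, against 5.92% of 10464 genes in either direction. Of the genes past 2-fold, 568 were lower and 51 higher. The median of the 9 members was -0.89. Tlr12 fell from 35.6 CPM to 11.1 CPM (-1.68, -2.04 to -1.32), and the ratio was -1.35 with TMM factors. Nod1 (-1.15, -1.86 to -0.44) and Tlr7 (-1.01, -1.70 to -0.31), low in this class on both days and below free RNA, were past 2-fold by CPM and at -0.83 and -0.68 with TMM factors. Without doublet removal they were at -0.81 and -0.75. Free RNA of these went from 22.1 CPM to 8.90 CPM and from 45.8 CPM to 20.8 CPM. Of the other members in the class's set, Tlr3 was lower, at -0.64 (-0.75 to -0.53) with Tlr11 at -0.90 (-1.11 to -0.69) and Nod2 at -0.89 (-1.18 to -0.60). None of these was past 2-fold, and with TMM factors they were -0.31, -0.57 and -0.56. Without doublet removal Tlr11 was past 2-fold (-1.18) and Tlr3 stood at -0.85, and with nuclei thinned to 1000 UMIs Tlr3 stood at -0.83. Tlr13 went the other way, by 0.73 (0.29 to 1.19), and by 1.06 with TMM factors. Free RNA of Tlr13 went from 7.76 CPM to 12.8 CPM. The sum of the 8 cDC1 markers in the class went from 5588 CPM to 4354 CPM, that of NK cell markers from 375 CPM to 191 CPM, and nuclei with both lymphoid and dendritic cell markers from 16.02% to 9.88%. Their part in these ratios was not tested.

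The cDC1-like class pools 3 clusters, whose shares differed between the days. One with higher levels of Tlr3, Tlr11 and Tlr12 made up 28.4% of the class at D0 and 14.7% at D5, the main one 60.8% and 77.1%, and one led by genes of cell division the rest. In the main cluster Tlr3 was at 218 CPM (199.9 to 237) and 154 CPM (145 to 163), and in the smaller one at 415 CPM (378 to 455) and 245 CPM (221 to 272). Tlr11 was at 53.1 CPM (44.4 to 63.0) and 35.9 CPM (31.9 to 40.3) in the main cluster and at 152 CPM (130 to 176) and 83.4 CPM (69.2 to 99.5) in the smaller one. Tlr12 was at 26.7 CPM (20.7 to 34.0) and 10.55 CPM (8.42 to 13.1), and at 63.2 CPM (49.3 to 79.85) and 19.8 CPM (13.3 to 28.5). All 3 genes were thus lower at D5 within both of these clusters, with intervals apart. In the dividing cluster Tlr3 was at 186 CPM (156 to 221) and 181 CPM (158 to 207), Tlr11 at 50.2 CPM (34.9 to 69.75) and 30.75 CPM (21.65 to 42.4), with overlapping intervals, and Tlr12 at 22.9 CPM (13.1 to 37.2) and 4.155 CPM (1.35 to 9.70). How far the changing shares of the clusters enter the pooled ratios was not tested.

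In cDC2-like nuclei, the median of 10 members was -0.83. Past 2-fold were 2 members, both lower, against 7.50% of 11806 genes (758 lower and 127 higher). The 2 members were the profilin receptors, Tlr11 at 14.0 CPM and 3.02 CPM (-2.21, -2.69 to -1.74) and Tlr12 at 5.80 CPM and 1.15 CPM (-2.34, -3.11 to -1.57). Both are low in this class and were higher in cDC1-like nuclei. Free RNA of the same genes went from 24.8 CPM to 11.9 CPM and from 18.2 CPM to 5.01 CPM, cDC1 markers in cDC2-like nuclei went from 1075 CPM to 711 CPM, and nuclei of this class with both lymphoid and dendritic cell markers from 18.03% to 10.6%. Their part in these ratios was not tested. Nod2, a gene of this class's own set, was lower, at -0.90 (-1.08 to -0.72), or -0.64 with TMM factors. Tlr2 was higher by 0.16 (0.02 to 0.31), or 0.43 with TMM factors, and Tlr13 (-0.08) and Tlr9 (-0.09) lay within their intervals and were above 0 with TMM factors. This class pools 5 clusters, whose shares differed between the days. The largest went from 45.5% to 33.85% of the class, with Nod2 at 105 CPM (91.9 to 119) and 56.8 CPM (52.2 to 61.6), and a second from 13.3% to 26.2%, with Nod2 at 54.1 CPM (37.25 to 76.0) and 39.97 CPM (35.55 to 44.8). Another, with 3 pDC markers beside 4 of cDC2, went from 8.44% to 15.4% and held Nod2 at 2.695 CPM (1 UMI) and 8.42 CPM (35 UMIs). Tlr2 was higher at D5 by value in these 3 clusters and lower in the other 2. How far the shares of the clusters enter the pooled ratios was not tested.

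In the other classes fewer members could be compared. In pDC-like nuclei 2 of 6 were past 2-fold, against 2.53% of 9460 genes. These were Tlr2, at 9.199 CPM and 19.2 CPM (1.06, 0.46 to 1.67; 0.77 with every nucleus thinned to 1000 UMIs), and Nod2, at 9.199 CPM and 4.14 CPM (-1.15, -2.10 to -0.27), on 36 and 16 UMIs, though only -0.36 without doublet removal. Free RNA of Tlr2 went from 48.1 CPM to 81.8 CPM, and that of Nod2 was 16.7 CPM and 11.3 CPM. The part of free RNA was not tested. Tlr7, which was highest in this class, was lower, at -0.21 (-0.37 to -0.05), and at -0.06 with TMM factors. In macrophage-like nuclei 2 of 7 were past 2-fold, against 6.14% of 8320 genes (437 lower and 74 higher). Nod1 went from 54.4 CPM to 24.7 CPM (-1.14, -1.58 to -0.70) and Tlr3 from 21.9 CPM to 8.99 CPM (-1.28, -2.01 to -0.55), and with TMM factors they were at -0.83 and -0.98. Nod1 was also short of 2-fold without doublet removal (-0.96), at Leiden resolution 1.5 (-0.74) and with thinned nuclei (-0.77). Tlr3 was below free RNA in this class on both days, and free RNA of Tlr3 went from 69.04 CPM to 26.7 CPM. In macrophage-like nuclei the sum of cDC1 markers went from 1016 CPM to 665 CPM and that of NK cell markers from 510 CPM to 220.4 CPM. Their part was not tested. Nod2 was lower, at -0.80 (-1.22 to -0.37). Tlr2 (0.02), Tlr4 (-0.27), Tlr7 (0.04) and Tlr13 (0.22) were within their intervals, and each changed sign under at least 1 alternative.

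Nod1 was past 2-fold in NK cell-like nuclei too, from 64.0 CPM to 25.1 CPM (-1.35, -1.84 to -0.88). It was the 1 of 4 members past 2-fold there, against 3.62% of 8182 genes, and Tlr2 was higher by 0.80 (0.04 to 1.60). Tlr2 stood at 11.5 CPM and 19.99 CPM in NK cell-like nuclei, below its free RNA, which went from 48.1 CPM to 81.8 CPM. The free RNA level of Nod1 went from 22.1 CPM to 8.90 CPM, the sum of NK cell markers in the class from 5547 CPM to 4890 CPM, and its nuclei with both lymphoid and dendritic cell markers from 36.6% to 43.6%. Their part was not tested. In T cell-like nuclei Nod1 was the 1 member compared and was not past 2-fold (-0.18), where 3.66% of 4696 genes were, and it was at 0.01 with TMM factors. None of 3 members was past 2-fold in Ccr7+ DC-like nuclei, against 4.89% of 6538 genes. There Tlr13 was at 0.28, Nod2 at -0.06 (-0.75 to 0.70) and Tlr2 at 0.85 (-0.12 to 1.97), each within its interval, and Tlr2 was past 2-fold with TMM factors (1.01), without doublet removal (1.28) and at Leiden resolutions 0.6 and 1.5 (up to 1.43). Tlr2 stood at 15.1 CPM and 27.1 CPM in this class, also below its free RNA, whose part was not tested. No member reached 50 UMIs in nonclassical monocyte-like nuclei.

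**Figure D2:**
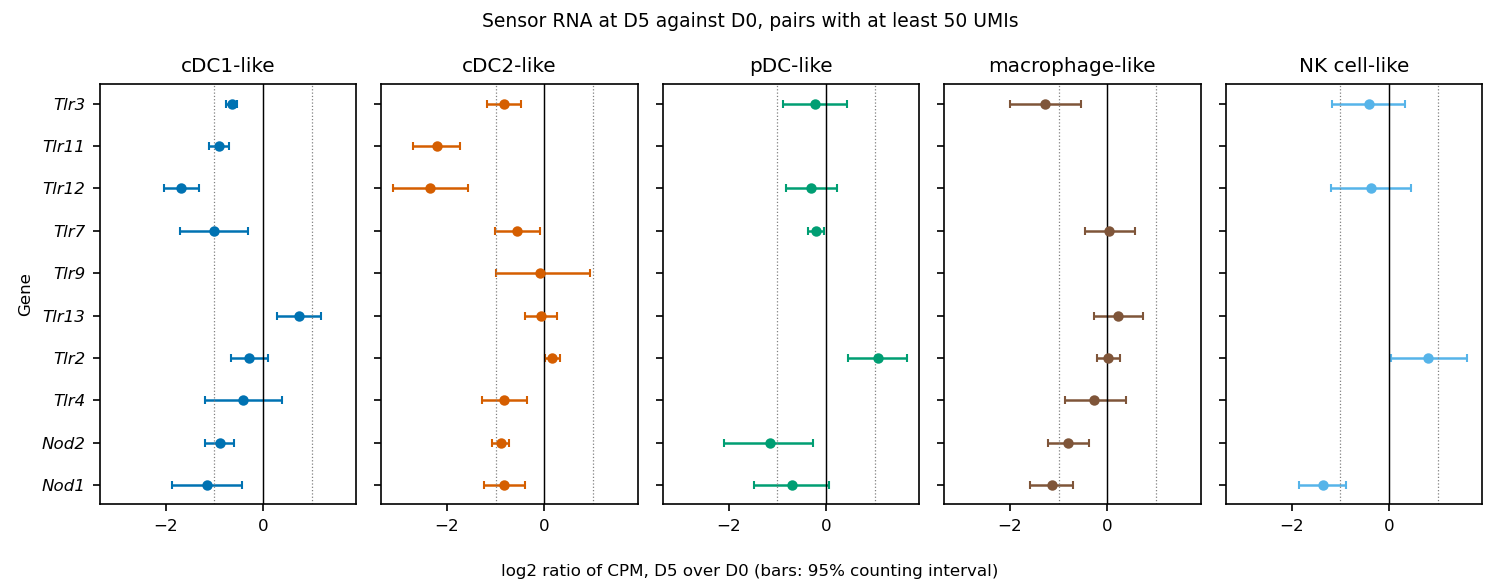
Log2 ratio of D5 over D0 levels (horizontal axis) for the members with at least 50 UMIs over both days, in 5 classes, with 95% exact conditional intervals for counting error and dotted lines at 2-fold. The lowest points are Tlr11 and Tlr12 in cDC2-like nuclei (-2.21 and -2.34), and Tlr2 in pDC-like nuclei is the point past 2-fold upwards (1.06).

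Within cDC2-like nuclei, a subcluster with preDC markers, the immature state that the study follows, was set beside 2 subclusters with Clec10a+ markers. The preDC-like state had 197 nuclei at D0 and 1459 at D5, or 8.11% and 14.65% of cDC2-like nuclei, and the Clec10a+ state 1728 and 5180. Subclusters left unnamed, with 324 and 2707, 154 and 353, and 26 and 263 nuclei at D0 and D5, entered neither state. The last of these also had 3 preDC markers, beside 2 Clec10a+ markers. One Clec10a+ subcluster was led by the heat shock genes Hspa1a and Hspa1b, and the other, the larger, had 4 markers of Ccr7+ DC beside its 4 Clec10a+ markers. The preDC-like subcluster had 3 markers of Ccr7+ DC beside its 5 preDC markers. Siglech is on the marker lists of both preDC and pDC, and the part of pDC RNA in this state was not tested. Nod2 had 0 UMIs in preDC-like nuclei at D0 and 295 UMIs, 84.3 CPM (75.0 to 94.5), in Clec10a+ nuclei, so that it was at least 9.95-fold lower by a floor of 3 counts in that library. By the two-sided exact interval the 0 UMIs reach 10.4 CPM, and the upper bound of the log2 ratio was -3.01. At D5 it had 7.33 CPM (4.91 to 10.5, 29 UMIs) and 44.7 CPM (41.4 to 48.2, 676 UMIs), a log2 ratio of -2.61 (-3.20 to -2.07). The larger Clec10a+ subcluster held 103 CPM (90.4 to 117) at D0 and 57.8 CPM (53.1 to 62.8) at D5, and the heat shock one 48.7 CPM (37.1 to 62.8) and 21.6 CPM (17.9 to 25.9), so both lay above the preDC-like intervals. Its low level in the preDC-like state was known when the gene list was made, so this is a description.

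At D0 Tlr2 stood at 56.5 CPM in the preDC-like and 99.4 CPM in the Clec10a+ state (-0.82, -1.55 to -0.17) and 89.5 CPM and 112 CPM at D5 (-0.33, -0.50 to -0.16). The Clec10a+ subclusters lay on either side of the preDC-like value at D5, the larger at 141 CPM (134 to 149) and the heat shock one at 62.3 CPM (55.9 to 69.3), so the direction for Tlr2 depends on the subcluster. Tlr4 was 3.79 CPM and 7.60 CPM at D5, on 15 and 115 UMIs (interval of the log2 ratio -1.89 to -0.22). Tlr13 was 8.47 CPM and 19.7 CPM at D0 (-1.22, -3.53 to 0.39) and 11.1 CPM and 18.1 CPM at D5 (-0.70, -1.20 to -0.24). At D0, 2 of 5 members compared were past 2-fold, Nod2 and Tlr13, against 20.9% of 7590 genes, and at D5 2 of 8, Nod2 and Tlr4, against 10.9% of 10683 genes. Tlr7 was higher in preDC-like nuclei at D5 by value (8.85 CPM and 5.88 CPM, 0.59, -0.02 to 1.17). Tlr12, under 50 UMIs and so not counted among the members compared, was higher there beyond its interval on both days, with 7 and 15 UMIs at D0 (2.21, 0.67 to 3.59) and 10 and 14 UMIs at D5 (1.45, 0.12 to 2.73). At D5 Tlr3 (-0.38), Nod1 (0.19) and Tlr11 (0.14) were within their intervals, and the last 2 were at -0.04 and -0.08 with TMM factors. At D0 Tlr3 was at -0.56 (-2.23 to 0.72) and Tlr11, in the other direction, at -0.99 (-3.31 to 0.62).

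**Figure D3:**
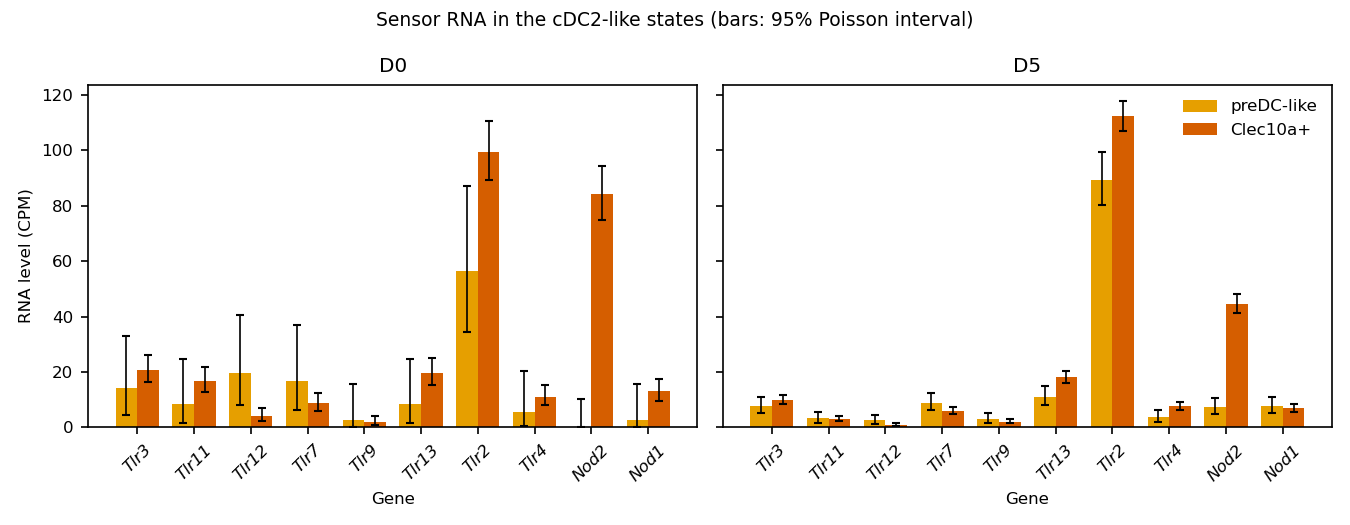
Levels of the members in preDC-like and Clec10a+ nuclei among cDC2-like nuclei at D0 and D5, in CPM on an axis from 0; error bars are 95% exact Poisson intervals. Nod2 shows the widest gap, 0 against 84.3 CPM at D0 and 7.33 against 44.7 CPM at D5, and Tlr2 is read in both states (89.5 and 112 CPM at D5).

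The ATAC layer was read in shared regions, formed where a D0 and a D5 peak overlapped, in fragments-per-million (fpm) of the class's fragments in shared regions, with a fragment taken as 2 cut sites. Within 10 kb of the members' start sites lay 60 peaks at D0 and 61 at D5, which gave 58 of the 127216 shared regions. A member was the nearest gene for 50 of these, and 12 overlapped a start site as the files give it, a single base or a span. All 10 members had a region over a start site on both days. Nod2 had 3, since the files give its start as a span from base 88647315 to 88651341. Of these, the region 2970 bases downstream lies between the ends of the span and covers neither. Coordinates are of mm10, the build in the submitters' processing notes, counted from 1.

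At Tlr3, accessibility over and next to the start was highest in cDC1-like nuclei, as was the RNA. The region over its start (chr8:45409785-45410643) held 32.8 fpm at D0 and 29.6 fpm at D5 in cDC1-like nuclei and at most 8.69 fpm elsewhere, and it also covers a start of Gm45542. The region 478 bases upstream (chr8:45410760-45411435) held 20.3 fpm and 18.3 fpm in cDC1-like nuclei and at most 3.66 fpm in the others. A region 4578 bases upstream was open more widely, with 33.3 fpm and 35.8 fpm in cDC1-like, 21.2 fpm and 21.8 fpm in cDC2-like, 15.7 fpm and 16.1 fpm in Ccr7+ DC-like and 14.4 fpm and 13.3 fpm in macrophage-like nuclei. In cDC1-like nuclei the D5 over D0 ratio of the start region was -0.15 (-0.38 to 0.09) by fpm and -0.58 scaled by nuclei, so it depends on the scaling. That of the RNA was -0.64 by CPM. It was not computed by nuclei, so it can be set beside the fpm ratio only.

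The region over the Tlr11 start (chr14:50357320-50358200) was less selective than the RNA. It held 21.1 fpm and 18.8 fpm in cDC1-like nuclei, but also 19.4 fpm and 14.3 fpm in Ccr7+ DC-like and 12.6 fpm and 11.1 fpm in cDC2-like nuclei. In NK cell-like nuclei it held 0.847 fpm and 1.16 fpm. A region 5869 bases downstream of the Tlr11 start went from 6.59 fpm to 3.57 fpm in cDC2-like nuclei (-0.88, -1.34 to -0.42). At Tlr12 the start region (chr4:128618426-128619268) was most open in pDC-like nuclei with 21.1 fpm and 27.5 fpm, with 16.3 fpm and 22.8 fpm in NK cell-like and 17.0 fpm and 14.4 fpm in cDC1-like nuclei. A region 2982 bases upstream of Tlr12 held 7.83 fpm and 8.89 fpm in cDC1-like nuclei and at most 1.66 fpm in any other class.

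Tlr7 and Tlr9 both had their most open start region in pDC-like nuclei. The Tlr7 start region held 8.63 fpm and 8.09 fpm in pDC-like nuclei, 3.17 fpm and 2.88 fpm in macrophage-like nuclei, and at most 2.86 fpm elsewhere. For Tlr9 (chr9:106222073-106222962), whose start window is printed above, pDC-like nuclei had 44.3 fpm and 54.3 fpm (0.29, 0.10 to 0.49, but -0.05 scaled by nuclei), cDC2-like nuclei 35.3 fpm and 41.2 fpm, and cDC1-like nuclei 26.4 fpm and 29.5 fpm. NK cell-like nuclei had 4.32 fpm and 4.79 fpm there. The Tlr13 start region held 9.69 fpm and 11.1 fpm in macrophage-like nuclei, 10.3 fpm and 6.98 fpm in Ccr7+ DC-like nuclei, 5.36 fpm and 7.06 fpm in cDC2-like nuclei and 0.771 fpm and 0.488 fpm in pDC-like nuclei.

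The Tlr2 start region was open in all myeloid classes, with 42.3 fpm and 39.4 fpm in macrophage-like, 43.6 fpm and 45.6 fpm in cDC2-like and 32.3 fpm and 30.65 fpm in cDC1-like nuclei. A region 3532 bases upstream of Tlr2 held 29.8 fpm and 37.4 fpm in macrophage-like and 11.1 fpm and 14.3 fpm in cDC2-like nuclei, against 7.71 fpm and 8.005 fpm in cDC1-like and 0.964 fpm and 1.255 fpm in pDC-like nuclei. Among macrophage-like, cDC2-like and pDC-like nuclei the Tlr4 start region varied less than the Tlr4 RNA. It held 31.4 fpm and 31.7 fpm in macrophage-like, 25.3 fpm and 21.9 fpm in cDC2-like and 18.3 fpm and 20.4 fpm in pDC-like nuclei. NK cell-like and T cell-like nuclei had fewer than 50 fragments there over both days.

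At Nod1 the start region held 25.4 fpm and 26.6 fpm in NK cell-like nuclei and 28.3 fpm and 19.1 fpm in T cell-like nuclei, against 9.01 fpm and 7.47 fpm in cDC1-like nuclei. In pDC-like nuclei it held 19.1 fpm and 16.7 fpm, although Nod1 RNA there was by its values below free RNA. The Nod2 locus showed several patterns within 10 kb. Its first start region (chr8:88646878-88647786), which covers the window printed above, held 20.6 fpm and 19.3 fpm in pDC-like nuclei, close to the 19.9 fpm and 20.5 fpm of cDC2-like nuclei, although pDC-like nuclei had little Nod2 RNA. The region 2970 bases downstream (chr8:88649861-88650707) separated these classes, with 22.9 fpm and 19.6 fpm in cDC2-like, 18.2 fpm and 21.8 fpm in Ccr7+ DC-like, 4.65 fpm and 3.85 fpm in cDC1-like and 1.98 fpm and 3.21 fpm in pDC-like nuclei. A region 4352 bases upstream of Nod2 was open in pDC-like nuclei, at 21.6 fpm and 30.3 fpm (0.49, 0.21 to 0.77, or 0.15 scaled by nuclei), and held at most 6.20 fpm in the other classes.

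Between the states of cDC2-like nuclei the Nod2 regions split in the same way. The region 2970 bases downstream held 9.15 fpm in the preDC-like and 26.1 fpm in the Clec10a+ state at D0 (-1.51, -2.75 to -0.50) and 10.9 fpm and 25.7 fpm at D5 (-1.23, -1.65 to -0.84). Over the first start the D5 values were 22.4 fpm and 21.5 fpm (0.06, -0.25 to 0.37), and 4352 bases upstream they were 8.62 fpm and 2.24 fpm (1.95, 1.29 to 2.62). The upstream region of Tlr2 had 2.502 fpm and 19.1 fpm at D5 (-2.93, -3.84 to -2.15), beside a ratio of -0.33 for Tlr2 RNA, and the Tlr13 start region 1.76 fpm and 8.54 fpm (-2.28, -3.40 to -1.33). The Tlr12 start region was higher in the preDC-like state, by 1.04 (0.07 to 1.91) at D0 and 1.03 at D5, where its interval began at 0.56. At D5 so was a region 1778 bases downstream of Tlr7, with 4.54 fpm and 2.08 fpm (1.13, 0.31 to 1.92). Among the classes, the Tlr12 start and the region 4352 bases upstream of Nod2 were most open in pDC-like nuclei. The part of pDC chromatin in the preDC-like state was not tested. In all, 7 of 21 member regions at D0 and 8 of 36 at D5 were past 2-fold between the states, against 21.0% of 34335 and 17.5% of 64068 shared regions.

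Between the days few of the members' regions were past 2-fold. Of 172 pairs of region and class with at least 50 fragments, 4 were past 2-fold and 21 beyond their intervals. How many of all shared regions lay beyond such intervals was not counted, so the 21 cannot be read as particular to the members. None of 43 was past 2-fold in cDC1-like nuclei, against 1.38% of all shared regions there, none of 31 in pDC-like nuclei, against 1.13%, none of 16 in Ccr7+ DC-like nuclei, against 1.58%, and none of 2 in T cell-like nuclei, against 0.961%. In cDC2-like nuclei 1 of 45 was, against 2.80%, a region 7212 bases downstream of Nod2 that went from 2.71 fpm to 1.26 fpm (-1.11, -1.85 to -0.34). The 1 of 23 in macrophage-like nuclei, against 2.13%, was the Tlr12 start region, from 14.1 fpm to 6.01 fpm (-1.23, -2.01 to -0.47). In NK cell-like nuclei 2 of 12 were, against 3.67%, both at Nod2, whose RNA held 5.50 CPM and 3.25 CPM there. The region 2970 bases downstream went from 3.73 fpm to 9.87 fpm (1.41, 0.59 to 2.25) and the region 4094 bases downstream from 8.13 fpm to 3.19 fpm (-1.35, -2.44 to -0.38), in opposite directions.

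Over 16 points, the 8 classes on 2 days, which share libraries and depth, Pearson's r between RNA and fragments in the start region was highest for Tlr13 (0.91), Nod2 (0.83) and Tlr3 (0.79). For Nod2 the fragments were summed over its 3 start regions, among them the region 2970 bases downstream. Its 0.83 is therefore not a value for the first start region alone. For the others r was 0.70 for Tlr7, 0.72 for both Tlr9 and Tlr12, 0.61 for Tlr2, 0.53 for Nod1 and 0.48 for Tlr11. The lowest was that of Tlr4 (0.13). These are descriptions without a test.

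**Figure D4:**
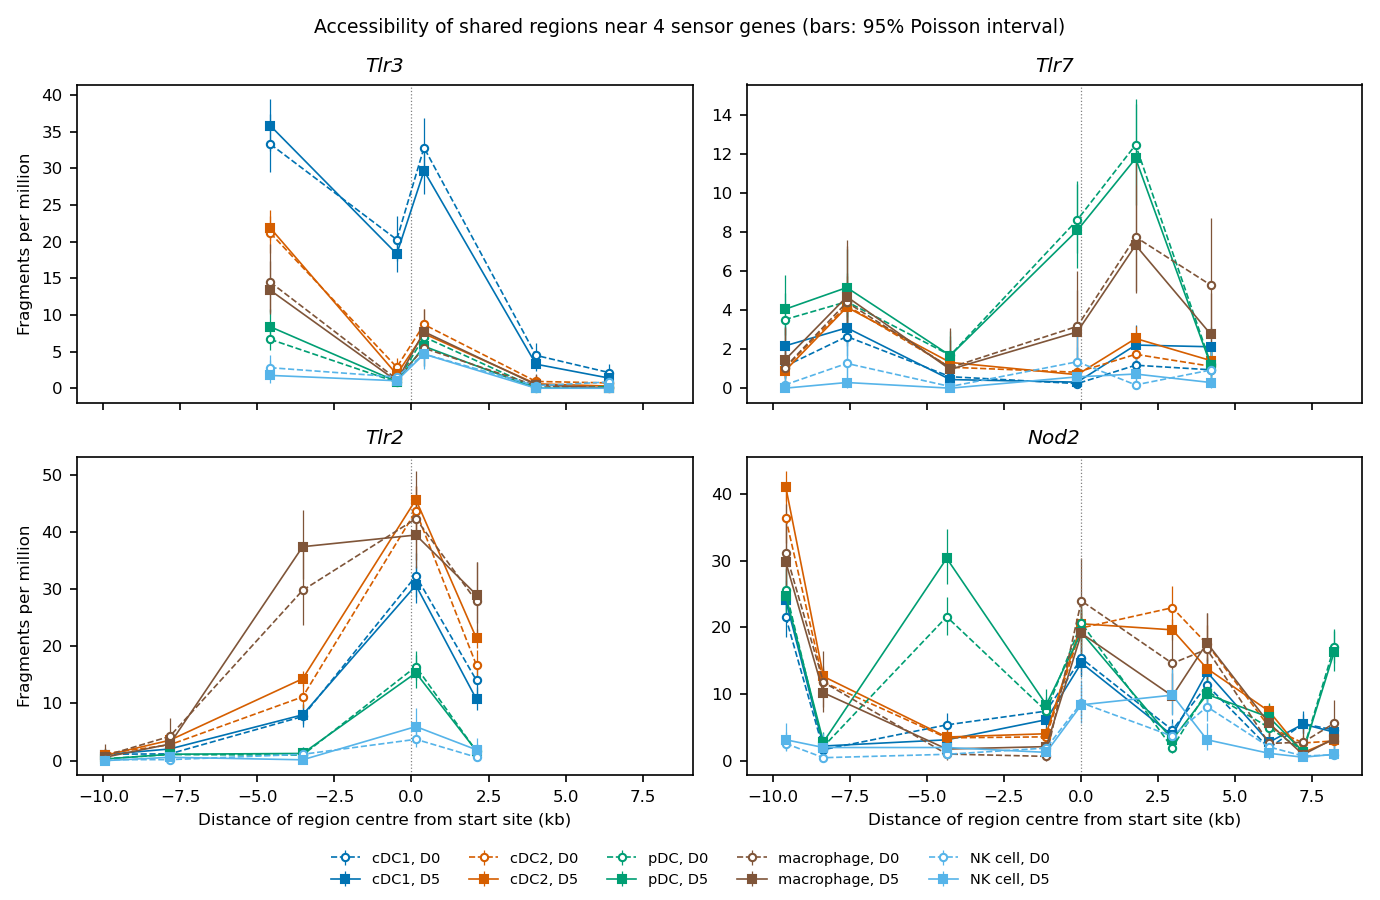
Accessibility (vertical axis, fpm) of shared regions near the start sites of Tlr3, Tlr7, Tlr2 and Nod2, placed by the distance of their centres from the start in kb, for 5 classes on 2 days with 95% Poisson intervals; lines join the regions of a class. Tlr3 stands out in cDC1-like nuclei (32.8 fpm over the start at D0), while the Nod2 start region is about as open in pDC-like (20.6 fpm) as in cDC2-like nuclei (19.9 fpm).

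The genes around these sensors were read from lists of 66 pathway genes. Past 2-fold between the days were 1 higher and 3 lower of 58 compared in cDC1-like, 0 and 4 of 64 in cDC2-like, 1 and 3 of 47 in Ccr7+ DC-like, 0 and 0 of 50 in pDC-like and 0 and 6 of 59 in macrophage-like nuclei. Over all genes the shares past 2-fold in these classes were 5.92%, 7.50%, 4.89%, 2.53% and 6.14%, in the same order. No compared gene of the lists for transport of endosomal receptors and for the NOD pathway, which have 8 genes each, was past 2-fold in these classes. All 8 transport genes were compared in each class, but only 6 to 8 of the NOD pathway genes. Unc93b1, the chaperone of Tlr3, Tlr7, Tlr9, Tlr11, Tlr12 and Tlr13, was highest in pDC-like nuclei (521 CPM and 476 CPM), followed at D0 by macrophage-like (458 CPM) and cDC1-like nuclei (450 CPM). Ripk2, the kinase of both NOD receptors, was highest in nonclassical monocyte-like nuclei (379 CPM and 243 CPM), where Nod1 was highest too.

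Of the 14 adaptors and kinases, Myd88, used by every Toll-like receptor except Tlr3, was the 1 past 2-fold in cDC1-like nuclei, higher at D5 with 29.5 CPM and 60.03 CPM (1.03, 0.75 to 1.31). It was higher in Ccr7+ DC-like nuclei also, on 8 and 64 UMIs (1.08, 0.02 to 2.35). In macrophage-like nuclei Ticam1, the adaptor of Tlr3, went from 27.9 CPM to 10.3 CPM (-1.44) and Traf3, which signals with it, from 199 CPM to 86.8 CPM (-1.20). The interferon regulatory factor gene Irf1 was lower in cDC1-like (-1.16), cDC2-like (-1.01), Ccr7+ DC-like (-1.05) and macrophage-like nuclei (-1.31), and Irf8 in Ccr7+ DC-like (-1.13) and macrophage-like nuclei (-1.05). Among co-receptors, Cd180, a relative of Tlr4, went from 145 CPM to 60.7 CPM in cDC2-like nuclei (-1.26). Of the other cytosolic sensors, Nlrp1b was lower in cDC1-like (-1.23) and cDC2-like nuclei (-1.78) and Zbp1 in Ccr7+ DC-like nuclei (-1.21). Of the negative regulators, Socs1 was lower in cDC1-like (-1.01) and macrophage-like nuclei (-1.71), Tnfaip3 in macrophage-like (-1.15) and Nlrc5 in cDC2-like nuclei (-1.12). With TMM factors each of these 16 lower ratios stayed below 0, but only 4 stayed past 2-fold, those of Nlrp1b in cDC2-like (-1.51), Zbp1 in Ccr7+ DC-like (-1.05) and Ticam1 (-1.13) and Socs1 (-1.41) in macrophage-like nuclei, while Irf1 in macrophage-like nuclei came just short of 2-fold and the rest lay between -0.68 and -0.99.

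By the likeness of log2 levels over the same 16 points, among 9465 genes, the patterns nearest to Tlr3 were those of Itgae, Ppt1 and Naaa (r of 0.96, 0.95 and 0.95), of which Itgae and Naaa are markers that named the cDC1-like class. Nearest to Tlr7 were Tgfbr1, Lair1 and Rap1a (0.97, 0.96 and 0.95) and to Tlr13 Tmem51, Lrrc25 and Spi1 (0.96, 0.95 and 0.94), the last of which encodes PU.1. Among those near Nod2 were Ext1 and Csf2ra (0.96 and 0.95). The nearest were for Tlr2 Mcub, Hpgd and Cd300c2 (0.96, 0.95 and 0.95), for Tlr11 Pi4k2a, Ahr and Stx17 (0.91, 0.90 and 0.90), for Tlr4 Daxx, Rnf213 and Chmp4b (0.89, 0.87 and 0.85), for Tlr12 Tmem161b, Trio and Arid3b (0.92, 0.90 and 0.89), and for Nod1 A330040F15Rik, Slc16a10 and Xdh (0.94, 0.93 and 0.92). Among the members themselves, Tlr3 and Tlr11 were most alike (0.87), followed by Tlr13 and Nod2 (0.80) and Tlr2 and Tlr13 (0.71), while the member nearest to Tlr12 was Tlr3 at 0.43. The points share libraries and depth, and these values carry no test.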

How the data were processed

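The 10x Multiome libraries were 1 from D0 and 1 from D5, each with an RNA and an ATAC layer. The deposited matrices hold raw counts, UMIs per gene and cut sites per peak called in that library. The submitters' processing notes name Cell Ranger ARC 2.0.2 and mm10, while the RNA matrix headers name cellranger 6.0.2. Whether introns or strand entered the counting is not given in the sources used here. Layers were joined by identical gene counts, which matched 16260 of 16260 and 27873 of 27873 called barcodes.

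Barcodes passed with a minimum of 1000 UMIs and a mitochondrial share of 10% or less (14278 and 26633), and 3298 and 6799 with a Scrublet doublet score of at least 0.2 were removed (expected doublet rate 0.1). Both libraries were clustered together without batch correction (scanpy 1.11.5, 2000 variable genes, 30 components, 15 neighbours, Leiden resolution 1.0, and 0.5 within cDC2-like nuclei) without the members and pathway genes. A class needed 3 markers at 2-fold (1.25-fold for states) and either 1.5 times the share of its markers that the next class had of its own, or a marker among the 10 leading genes where that class had none. Ratios needed 50 UMIs or fragments over both groups. TMM factors came from edgeR 4.0.16. With 1 library a day no test was run. Genes outside the member and pathway lists were named by likeness of pattern (log2 of CPM + 1, highest class at least 20 CPM, the 3 closest genes), and pathway genes where past 2-fold. For Nod2, 1 gene that this rule names is not reported here. Scripts were tested on simulated data. The members, lists and contrasts were chosen with earlier results of these data known.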

Additional observations from a re-analysis of the deposited data

Results flagged for a closer look

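In 5 cases a member was above its level in every class used in the comparisons, with more than 3 UMIs and a lower bound above the free RNA, in nuclei that entered no comparison because they were too few or lay in an unnamed cluster. All were at D5 and rest on few UMIs. Tlr4, the lipopolysaccharide receptor, had 48.6 CPM (22.2 to 92.3; 9 UMIs) in the 91 neutrophil-like nuclei, against 18.75 CPM in macrophage-like nuclei and 3.34 CPM in free RNA. Tlr12 had 19.6 CPM (8.98 to 37.3; 9 UMIs) in an unnamed cluster of 99 nuclei with markers of both NK cells and cDC1, against 14.75 CPM in pDC-like nuclei and 5.01 CPM in free RNA. Both intervals overlapped that of the highest class used, 14.7 to 23.6 CPM for Tlr4 in macrophage-like and 11.2 to 19.1 CPM for Tlr12 in pDC-like nuclei.

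Nod2, the muramyl dipeptide receptor, had 84.9 CPM (55.4 to 124; 26 UMIs) in 83 nuclei of an unnamed cluster led by Cxcl10 and Cxcl9. It had 73.8 CPM (57.2 to 93.8; 67 UMIs) in 339 nuclei of a cluster led by Adgrl3 with 3 cDC2 markers, and 38.03 CPM (22.5 to 60.1; 18 UMIs) in 114 nuclei with markers of cDC1 and pDC. The highest class used was nonclassical monocyte-like at 37.9 CPM, whose interval of 18.2 to 69.7 CPM overlaps all 3, and the free RNA stood at 11.3 CPM. The part of doublets in the clusters with markers of 2 classes was not tested.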

How the results depend on the processing

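No paired analysis was possible because each day is 1 library, and no replicate could be left out. Of the sensor sets, 22 pairs at D0 became 14 with at least 2000 UMIs per nucleus, where 6 classes were left, and 14 with a minimum of 0.5 of the highest class. The 9 pairs at least 2-fold lower at D5 became 5 with at least 2000 UMIs, 4 with every nucleus thinned to 1000 UMIs, 5 with TMM factors and 25 without a minimum of UMIs. The 1 pair at least 2-fold higher became 3 without doublet removal, 2 at Leiden resolution 0.6, 2 at 1.5, 0 with at least 2000 UMIs, 0 when thinned, 3 with TMM factors and 5 without a minimum. Within 2 kb of a start site 21 shared regions were left of 58, and scaling by nuclei took the region and class pairs past 2-fold from 4 to 9. The causes were not tested. Single ratios moved beyond their intervals in 6 of 40 pairs with TMM factors and 5 of 38 without doublet removal. No ratio past 2-fold changed sign under the settings that gave it a value, and thinning and the minimum of 2000 UMIs gave none for part of the pairs. Tlr12 in cDC2-like nuclei had a value only with TMM factors and without a minimum. Depth limits Tlr9, Tlr4 and every value of nonclassical monocyte-like nuclei.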
